A study of Mus musculus with 6 samples.

Results

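The genes described here are 10 genes of lipogenesis and triglyceride synthesis (Fasn, Acaca, Acly, Scd1, Elovl6, Thrsp, Gpd1, Dgat2, Agpat2 and Srebf1), among 54093 genes listed for the right atrium (RA). They were chosen by symbol after levels of this same comparison had been seen, so their difference between groups is given as a description, without a test. All 10 were among the 12627 genes with a mean of at least 1 FPKM over the 6 libraries. FPKM is fragments per kilobase of gene, scaled to the library size behind the deposited values. That size was not the number of fragments counted on genes. RNA was read in 3 sham and 3 volume overload (VO) libraries from wild-type C57BL/6 mice, male or female, at postnatal day 21 (P21). VO was made in neonatal pups by an aortocaval fistula (ACF), a puncture that lets aortic blood flow into the inferior vena cava, and control mice had sham surgery. Each library came from myocardium of the RA. The extraction text speaks of a rat while the organism is given as mouse, and the reads were counted on mouse genes. The labels do not say whether replicates were separate animals, so the errors below measure the spread between these libraries.

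De novo lipogenesis turns citrate that leaves the mitochondrion into fatty acids. Acly releases acetyl-CoA from citrate, Acaca carboxylates it to malonyl-CoA, Fasn builds palmitate from both, Elovl6 lengthens palmitate and Scd1 puts in a double bond. Triglyceride is then assembled on a glycerol backbone: Gpd1 makes glycerol 3-phosphate, Agpat2 adds the second acyl chain and Dgat2 the last. Srebf1 encodes SREBP1, the transcription factor that drives many of these genes, and Thrsp encodes Spot 14, a small protein that promotes fatty acid synthesis. The pathway is most active in liver, fat and the lactating mammary gland, whereas the heart takes up most of its fatty acids from blood and burns them. The fibrous sac around the heart and the great vessels can carry white and brown fat.

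Promoter sequence is shown for 3 of the genes because SREBP1 is known to act together with NF-Y and Sp1, which bind CCAAT and GC boxes. RefSeq start sites on GRCm38.p6 were at hand for 7 of the 10 genes. Where a gene had several starts, a match in any of its windows was counted. Each sequence runs 5′ to 3′ on the minus strand up to the base before the start, and capitals mark CCAAT or GGGCGG on either strand.
Fasn, chr11:120824548-120824667: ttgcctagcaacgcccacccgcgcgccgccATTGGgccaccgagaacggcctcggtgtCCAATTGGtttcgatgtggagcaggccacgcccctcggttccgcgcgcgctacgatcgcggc
Acly, chr11:100528001-100528120: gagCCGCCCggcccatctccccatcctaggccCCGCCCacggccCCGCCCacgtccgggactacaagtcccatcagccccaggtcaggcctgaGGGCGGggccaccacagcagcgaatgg
Agpat2, chr2:26604418-26604477: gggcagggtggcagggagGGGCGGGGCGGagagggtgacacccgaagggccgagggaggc
In the 250 bases before the start, CCAAT was found for 3 of the 7 genes (Fasn, Thrsp and Srebf1). By window this was 4 of 9, against 33.8% of 32851 windows of the same length over the genes searched. GGGCGG was found for 3 of 7 (Acly, Agpat2 and Srebf1), in 4 of 9 windows, against 32.7% of windows. The sterol element TCACNCCAC was found in none of the 7 (1.05% of windows) and the E-box CACGTG in none (6.02%). The Acaca window (chr11:84195188-84195437) lies within the listed gene, far from its start, so the bases before that start were not searched. The Srebf1 windows with GGGCGG also lie within its listed gene. Fasn carried CCAAT and no GGGCGG in this window, and Acly carried GGGCGG and no CCAAT. These matches describe letters in a window and were not tied to the levels below.

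The libraries held 15963082 to 17237903 fragments on genes. By the library size behind each deposited value, 1 FPKM equalled 15.6 to 18.1 fragments for each kilobase of gene. VO 1 and VO 3 stood apart from the rest. In VO 3 the 8 adipocyte markers summed to 368.5 FPKM, and in the 5 other libraries to 0.0935 to 1.91 FPKM. Adipoq, the hormone adiponectin, was at 48.7 FPKM in VO 3 and at most 0.489 FPKM elsewhere, Plin1 at 21.5 against at most 0.119, Cidec at 46.0 against at most 0.208, Retn at 10.1 against at most 0.272, and Cfd at 231.1 against at most 0.733. Lep at 2.70 FPKM, Adrb3 at 5.55 and Acvr1c at 2.90 in VO 3 were each at most 0.0820 elsewhere. Brown fat markers were high in the same library, where Ucp1, the uncoupling protein of thermogenic fat, was read at 253.6 FPKM and was at 0 in the 5 others. Otop1 was at 4.43 FPKM in VO 3 and at most 0.0747 elsewhere, while Cidea was read at 3.50 to 7.69 FPKM in the 5 other libraries and at 65.7 in VO 3. Schwann cell markers summed to 39.6 FPKM in VO 3 and to 8.07 to 9.99 elsewhere, with Mbp at 7.09 against 3.59 to 6.05. In VO 1 the macrophage markers summed to 625.8 FPKM, against 145.4 to 211.7 elsewhere, with Lyz2 at 484.6 FPKM. The atrial cardiomyocyte markers, led by Myl7, were present in every library and summed to 19478 to 25543 FPKM in sham, 9021 in VO 1, 16817 in VO 2 and 13075 in VO 3. Fibroblast (429.8 to 534.6 FPKM, led by Dcn), endothelial (120.2 to 134.3, led by Pecam1) and mesothelial (30.8 to 97.4, led by Upk3b) sums in VO 3 lay within the range of the 5 others. In the hepatocyte list Cyp2e1 was at 39.4 FPKM in VO 3 and at most 3.87 elsewhere, while Alb was at 0.208 in VO 3. In bulk RNA, fewer cells of a type and less RNA per cell cannot be told apart. The part of these cell types in the levels below was not tested.

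**Figure D1:**
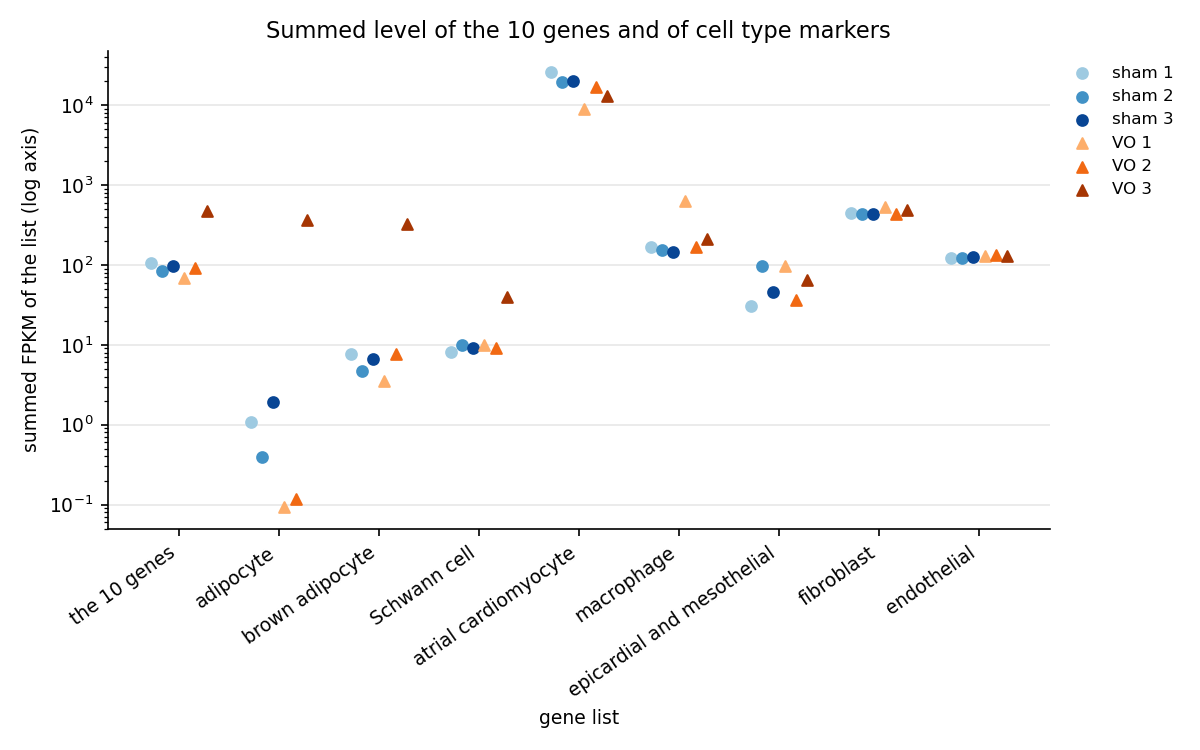
Summed FPKM (log axis) of the 10 genes and of 8 cell type marker lists, with a circle for each sham library and a triangle for each VO library. The 10 genes summed to 475.5 FPKM in VO 3 and 68.3 to 105.4 in the 5 others; adipocyte and brown adipocyte markers were far higher in VO 3, and macrophage markers highest in VO 1.

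All 10 genes were read in all 6 libraries, and all 10 were highest in VO 3, a position that 14.2% of the 12627 tested genes shared. The level in VO 3 was 1.84 times (Acly) to 19.2 times (Thrsp) the highest of the 5 other libraries. It was at least 2 times that level for 8 of the 10 genes, as for 0.729% of all tested genes. Since the genes were chosen on this contrast, nothing is read from these shares. Just outside that limit stood Srebf1 at 1.95 and Acly at 1.84, and just inside it Dgat2 at 2.10 and Agpat2 at 2.66.

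Acly, the ATP citrate lyase that supplies cytosolic acetyl-CoA (chr11:100476353-100528000, minus strand), was read at 11.5, 12.9 and 12.7 FPKM in sham and at 13.6, 14.0 and 25.7 in VO 1, VO 2 and VO 3. It was the 1 gene of the 10 whose groups did not overlap, which held for 21.2% of tested genes. Sham 1 was lowest and the 5 libraries other than VO 3 lay within a factor of 1.22. The mean was 12.4 ± 0.768 (SD, n = 3) in sham and 17.8 ± 6.87 (SD, n = 3) in VO.

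Acaca, the cytosolic acetyl-CoA carboxylase of fat synthesis (chr11:84129672-84401651, plus strand), was a low gene in these atria. Its levels were 1.13, 1.45 and 1.59 FPKM in sham and 1.42, 1.66 and 5.87 in VO, so VO 1 lay within sham, VO 2 just above it and VO 3 at 3.53 times the highest other library. The group means were 1.39 ± 0.234 and 2.98 ± 2.50 FPKM (SD, n = 3 each).

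Fasn, the multi-domain synthase that makes palmitate (chr11:120805846-120824547, minus strand; promoter above), was read at 3.98, 4.97 and 4.96 FPKM in sham and at 4.60, 4.26 and 36.2 in VO. VO 1 and VO 2 both lay inside the sham range, and VO 3 was 7.30 times the highest of the others. The spread of the VO group came from that library, with a mean of 15.0 ± 18.4 against 4.64 ± 0.571 FPKM in sham (SD, n = 3 each).

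Elovl6, the elongase that takes palmitate to stearate (chr3:129532355-129638495, plus strand), was the lowest of the 10. Sham libraries gave 0.720, 0.713 and 0.487 FPKM and VO libraries 0.737, 0.601 and 8.93. These values rested on 51 to 86 fragments in each of the 5 other libraries and on 945 in VO 3, which was 12.1 times the highest of the rest.

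Scd1, a stearoyl-CoA desaturase of the endoplasmic reticulum (chr19:44394451-44407709, minus strand), was read at 10.5, 7.74 and 11.7 FPKM in sham. VO 1 and VO 2, at 6.99 and 6.23 FPKM, were both below every sham library, and VO 3, at 95.3, was 8.12 times the highest of them. No other gene of the 10 had both of these VO libraries below the sham range. The means were 9.999 ± 2.05 in sham and 36.2 ± 51.2 FPKM in VO (SD, n = 3 each).

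Gpd1, the cytosolic glycerol-3-phosphate dehydrogenase that links glycolysis to the triglyceride backbone (chr15:99717515-99725005, plus strand), was read at 11.4, 8.05 and 11.2 FPKM in sham and 6.53, 8.10 and 103.8 in VO. VO 1 was lowest, VO 2 lay at the lower edge of sham, and VO 3 was 9.14 times the highest of the others. In that library Gpd1 was the highest of the 10 genes, ahead of Dgat2 and Scd1.

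Agpat2, the acyltransferase whose loss causes congenital generalised lipodystrophy (chr2:26593057-26604417, minus strand; promoter above), was read at 12.6, 9.53 and 10.2 FPKM in sham. The VO libraries gave 8.05, 11.1 and 33.5, so VO 1 was lowest, VO 2 inside the sham range and VO 3 2.66 times the highest other library. Egfl7, on the opposite strand, overlaps Agpat2 and averaged 22 FPKM. The strand setting of the counting is not given in the sources used here, so reads in the overlap may be uncertain.

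Dgat2, which joins the last acyl chain to diacylglycerol (chr7:99153658-99182719, minus strand), had the highest sham level of the 10. It was read at 46.1, 32.3 and 36.1 FPKM in sham and at 20.7, 38.6 and 96.8 in VO. VO 1 was the lowest library and VO 2 lay inside the sham range, while VO 3 was 2.10 times sham 1, the next highest. The means were 38.1 ± 7.14 in sham and 52.0 ± 39.8 FPKM in VO (SD, n = 3 each).

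Srebf1, the sterol-regulated transcription factor gene (chr11:60199089-60222581, minus strand), varied least of the 10 among the 5 other libraries, within a factor of 1.18. Its levels were 4.43, 5.22 and 5.17 FPKM in sham and 4.84, 4.71 and 10.2 in VO, with VO 1 and VO 2 inside the sham range. Rai1, on the opposite strand, overlaps it and averaged 3.41 FPKM.

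Thrsp, the Spot 14 gene (chr7:97412938-97417730, minus strand), varied most. It was read at 3.08, 1.22 and 1.82 FPKM in sham and at 0.831, 1.63 and 59.2 in VO, and these rested on 33 to 105 fragments in the 5 other libraries and on 2132 in VO 3. Among those 5, the highest was 3.71 times the lowest, the widest spread of the 10, and VO 3 was 19.2 times the highest. The means were 2.04 ± 0.951 in sham and 20.6 ± 33.5 FPKM in VO (SD, n = 3 each).

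**Figure D2:**
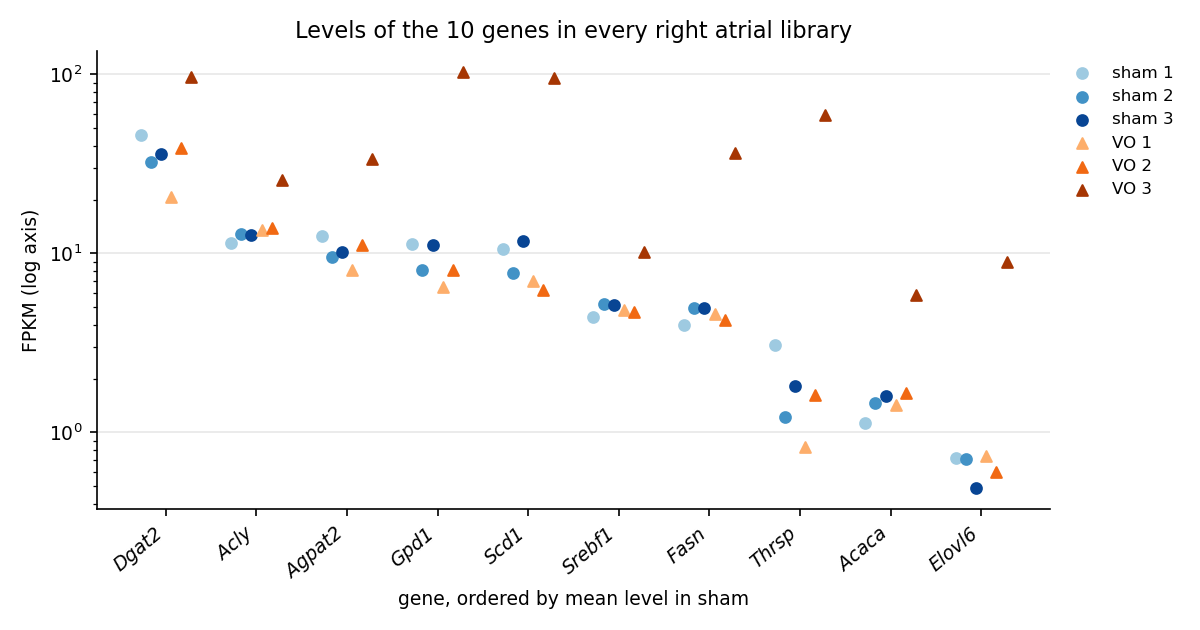
FPKM (log axis) of each of the 10 genes in each library, ordered by the mean in sham, with circles for sham and triangles for VO. VO 3 is the top point for all 10 genes, from 1.84 times (Acly) to 19.2 times (Thrsp) the next highest, and the 5 other libraries lie close together for most genes.

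In sham the order was Dgat2 (38.1 ± 7.14 FPKM), Acly (12.4 ± 0.768), Agpat2 (10.8 ± 1.60), Gpd1 (10.2 ± 1.87), Scd1 (9.999 ± 2.05), Srebf1 (4.94 ± 0.443), Fasn (4.64 ± 0.571), Thrsp (2.04 ± 0.951), Acaca (1.39 ± 0.234) and Elovl6 (0.640 ± 0.132; SD, n = 3 each). The ranges of neighbours overlapped from Acly to Scd1, between Srebf1 and Fasn, and between Thrsp and Acaca, so these could not be ordered beyond their spread. Dgat2 stood above Acly, Scd1 above Srebf1, Fasn above Thrsp and Acaca above Elovl6 without overlap. In VO 3 the order was another one, with Gpd1 (103.8), Dgat2 (96.8) and Scd1 (95.3) at the top, then Thrsp (59.2), Fasn (36.2), Agpat2 (33.5), Acly (25.7), Srebf1 (10.2), Elovl6 (8.93) and Acaca (5.87). Thrsp moved from eighth place to the place after Scd1.

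VO against sham was then described on log2(FPKM + 0.1), with and without VO 3. With all 6 libraries the log2 fold change was above 0 for 10 of 10 genes, with a median of 0.74 against -0.01 over all tested genes. Without VO 3 it was above 0 for 3 and below 0 for 7, with a median of -0.12 against -0.02 over all tested genes. The largest with all libraries were Elovl6 at 1.25 (SE 0.93), Thrsp at 1.19 (SE 1.44) and Fasn at 0.94 (SE 0.76), and without VO 3 these became 0.07 (SE 0.37), -0.66 (SE 0.45) and -0.06 (SE 0.15). For Gpd1 the value went from 0.81 (SE 0.97) to -0.47 (SE 0.20) and for Scd1 from 0.71 (SE 0.97) to -0.57 (SE 0.20). Acaca went from 0.77 (SE 0.50) to 0.15 (SE 0.24) and Acly from 0.46 (SE 0.24) to 0.16 (SE 0.11), so both of these and Elovl6 were above 0 either way. Agpat2 went from 0.43 (SE 0.48) to -0.18 (SE 0.19), Srebf1 from 0.32 (SE 0.29) to -0.04 (SE 0.14) and Dgat2 from 0.18 (SE 0.51) to -0.42 (SE 0.29). With all libraries the SE was larger than the log2 fold change itself for 5 of the 10 genes. The sign of the difference for 7 of the 10 genes therefore depended on 1 library.

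**Figure D3:**
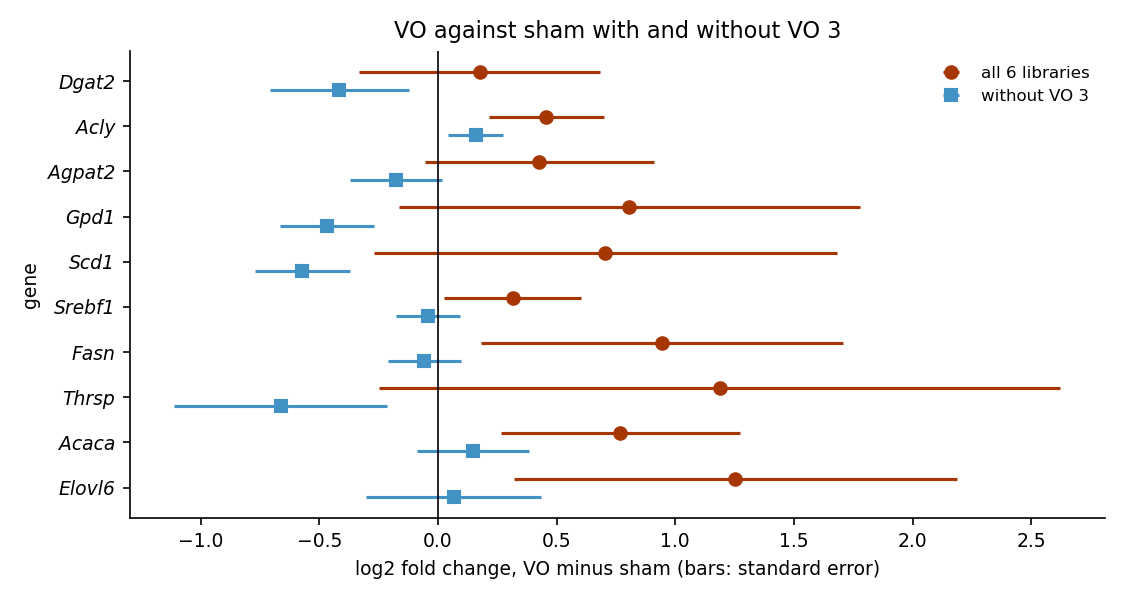
Log2 fold change of VO over sham for each gene, with bars of 1 standard error, from all 6 libraries (circles) and without VO 3 (squares). All 10 circles lie above 0, and without VO 3, 7 of the squares lie below 0 and 3 above.

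Among the 20 values of the 10 genes in VO 1 and VO 2, 10 lay within the range of the 3 sham libraries, 6 below it and 4 above it. VO 1 was the lowest library for 4 genes, Dgat2, Agpat2, Gpd1 and Thrsp, as for 32.5% of tested genes. Sham 1 was the highest of the 5 other libraries for the same 4 genes, and it also had the highest Myl7 (8501 FPKM, against 2586 in VO 1) and Nppa (5513 against 1026). Leaving out VO 1 in place of VO 3 raised the median log2 fold change of the 10 genes to 1.22.

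The next comparison set the 10 genes against the adipocyte markers, to separate levels read where those markers were absent from levels that went with them. In VO 1 and VO 2 Adipoq, Plin1, Cidec, Retn, Lep and Cfd were all at 0 fragments, which allows up to 3 of each. In these same libraries Dgat2 was still read at 20.7 and 38.6 FPKM, Acly at 13.6 and 14.0, Agpat2 at 8.05 and 11.1, Gpd1 at 6.53 and 8.10, Scd1 at 6.99 and 6.23, Srebf1 at 4.84 and 4.71, and Fasn at 4.60 and 4.26. Acaca (1.42 and 1.66), Thrsp (0.831 and 1.63) and Elovl6 (0.737 and 0.601) were low there but above 0. A line of each gene's FPKM on the summed adipocyte markers gave its level at a sum of 0, which was put over its 6-library mean. This level was 85.7% of the mean for Acly (12.9 FPKM, SE 0.439), 84.5% for Srebf1 (4.86, SE 0.146) and 76.8% for Dgat2 (34.6, SE 4.16), the 3 genes at or above 75%. It was 72.4% for Agpat2, 66.0% for Acaca, 45.7% for Fasn, 36.7% for Scd1, 35.7% for Gpd1 and 31.3% for Elovl6. For Thrsp alone it was under 25%, at 14.2% (1.60 FPKM, SE 0.357). These percentages rest on VO 3, since no other library had more than 1.91 FPKM of the markers. Without VO 3 all 10 genes were at or above 75%, from 75.2% (Scd1) and 75.6% (Thrsp) to 109.8% (Elovl6), so the split was present only with that library. Leaving out 1 of the 5 other libraries makes VO 3 a larger part of the mean, and percentages of other genes fell too (Acly to 82.7% to 84.1%). Dgat2 moved to 70.8% to 73.9% when sham 1, sham 2, sham 3 or VO 2 was left out. Its level at 0 then lay between 31.8 and 35.2 FPKM.

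Isozymes outside the 10, named here after their values were seen, were set beside the genes described. Each ratio below includes a gene of the 10, all highest in VO 3, so its shift in VO 3 is not a separate observation. Acacb, the mitochondrial carboxylase that restrains fatty acid oxidation, was read at 16.7, 20.2 and 18.2 FPKM in sham and 15.1, 22.2 and 26.5 in VO. It was 10.6 to 14.8 times Acaca in the 5 other libraries and 4.51 times in VO 3. Gpd1l, a relative of Gpd1 known from cardiac sodium channel regulation, lay between 14.7 and 16.2 FPKM in all 6 libraries. Gpd1 was 0.444 to 0.768 times Gpd1l in the 5 other libraries and 6.81 times in VO 3.

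Scd2 was above Scd1 in the 5 other libraries, by 1.92 to 4.44 times, and below it in VO 3 (0.315 times). Its own levels were 20.2, 26.5 and 28.2 FPKM in sham and 29.3, 27.6 and 30.0 in VO, so VO 3 stood close to VO 1 and VO 2. Scd4, the desaturase described in heart, was lowest where Scd1 was highest. It was read at 20.7, 37.0 and 24.0 FPKM in sham, 66.0 and 54.5 in VO 1 and VO 2, and 16.4 in VO 3. VO 1 and VO 2 thus lay above every sham library, and VO 3 below every one. Over all 6 libraries, which joins these opposite sides, its log2 fold change was 0.56 (SE 0.52, adjusted p = 0.618 in limma). Reads shared between these close relatives may have been split in counting, so their ratios are uncertain. Dgat1, the other diacylglycerol acyltransferase, was at 4.31 to 5.20 FPKM in the 5 other libraries and 10.1 in VO 3. Dgat2 was 4.06 to 8.95 times Dgat1 in the 5 others and 9.56 times in VO 3, where both were highest. Agpat1 was 1.70 to 2.37 times and Agpat3 1.82 to 2.71 times Agpat2 in the 5 others, against 0.585 and 0.763 times in VO 3. Elovl5, the elongase of polyunsaturated chains, was 30.0 to 46.4 times Elovl6 in the 5 others and 2.99 times in VO 3. Srebf2, which drives sterol synthesis, was 1.89 to 2.44 times Srebf1 in the 5 others and 0.914 times in VO 3.

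**Figure D4:**
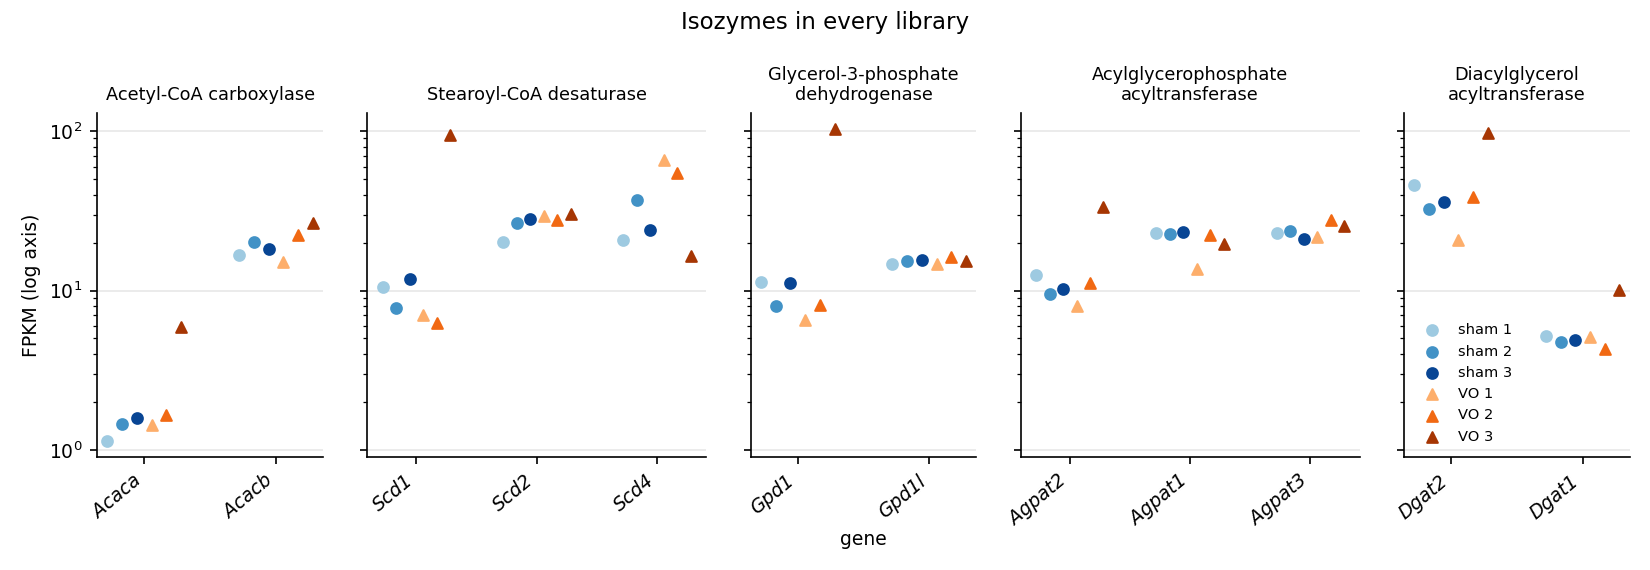
FPKM (log axis) of 5 families of isozymes in each library, with circles for sham and triangles for VO. VO 3 stands above the 5 other libraries for Acaca, Scd1, Gpd1, Agpat2 and Dgat2, at 2.10 times or more the next highest. It is also the highest library for the isozymes Acacb, Dgat1 and, by little, Scd2. Gpd1l, Scd2, Agpat1 and Agpat3 show VO 3 near the rest and Scd4 shows it lowest.

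The rest of the pathway was read from 6 lists by textbook role, with the 10 genes left out. Of their 73 genes, 63 were tested in limma over all 12627 genes. None had an adjusted p under 0.05 (smallest 0.371), where over all genes 1 did (0.00792%). At an unadjusted p under 0.05, 4 of 63 were higher in VO, against 3.89% of all tested genes, and 2 were lower, against 8.08%. On TPM, which moved the median of all tested genes by over 0.1, they were 9 and 1, with 1085 of all tested genes higher and 486 lower against 491 and 1020 here. Without VO 3 these counts were 6 higher, against 3.94%, and 6 lower, against 7.55%, again with none under 0.05 after adjustment (smallest 0.419). The median log2 fold change of the 63 was 0.08 with all libraries and -0.07 without VO 3. VO 3 was the highest library for 38 of the 63, against 14.2% of all tested genes. It was at least 2 times the highest of the others for 6, against 0.729% of all tested genes. These 6 were Slc25a1, Pck1, Aqp7, Pparg, Cebpa and Lipe. The lists were chosen with earlier results of these data known, so nothing is read from these shares.

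In the list for carbon and NADPH supply, 1 of 9 tested genes was higher at an unadjusted p under 0.05 and none lower. That gene was G6pdx, the entry to the pentose phosphate pathway, at 3.92, 4.05 and 3.77 FPKM in sham and 5.85, 5.52 and 9.44 in VO. All VO libraries lay above all sham libraries, and groups did not overlap, in either direction, for 21.2% of all tested genes. The same share stands beside each later gene of these lists without overlap. For G6pdx the log2 fold change in limma was 0.77 (SE 0.21, adjusted p = 0.373), and 0.53 (SE 0.12, adjusted p = 0.419) without VO 3. Slc25a1, the citrate carrier that feeds Acly, was at 2.78 to 4.86 FPKM in the 5 other libraries and 15.0 in VO 3. Mid1ip1, a partner of Thrsp, had a log2 fold change of -0.19 (adjusted p = 0.703) and Acss2, which makes acetyl-CoA from acetate, -0.10 (adjusted p = 0.807).

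Among 10 tested genes of elongation and desaturation, 1 was lower and none higher at an unadjusted p under 0.05. Tecr, the reductase of the last elongation step, was at 92.3 ± 6.59 FPKM in sham and 66.5 ± 15.9 in VO (SD, n = 3 each), without overlap, with an adjusted p of 0.410 in limma. Its log2 fold change was -0.50 with all libraries and -0.61 without VO 3. Elovl1 was at 10.1 ± 0.266 and 12.1 ± 1.40 FPKM (adjusted p = 0.423 in limma), Scd2 had a log2 fold change of 0.23 and Hacd3 of -0.05. Elovl3, Elovl7 and Scd3 were under a mean of 1 FPKM and were not tested.

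Glycerolipid assembly had 1 of 15 tested genes higher and 1 lower at an unadjusted p under 0.05. Gpam, the mitochondrial acyltransferase that adds the first acyl chain, was at 12.5, 13.6 and 12.4 FPKM in sham and 16.5, 15.1 and 25.1 in VO, without overlap. Its log2 fold change was 0.52 (SE 0.19, adjusted p = 0.410), and 0.30 (SE 0.12) without VO 3. Agpat5 went the other way, with 11.5 ± 1.40 FPKM across sham libraries and 8.43 ± 1.17 across VO libraries (SD, n = 3 each; adjusted p = 0.404 in limma), and its log2 fold change was -0.45 without VO 3. Pck1, the gene for glyceroneogenesis in fat, was at most 0.206 FPKM in 5 libraries and 56.8 in VO 3, and Aqp7, the glycerol channel, was at 0.727 to 1.58 and 7.74. Agpat1 had a log2 fold change of -0.34 (adjusted p = 0.447). Gpat2, Mogat1 and Mogat2 were not tested.

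None of 12 lipogenic regulators had an unadjusted p under 0.05 with all libraries. Pparg, the nuclear receptor of fat cells, was at 1.55, 1.28 and 1.71 FPKM in sham and 2.39, 2.16 and 14.3 in VO, so VO 1 and VO 2 also lay above every sham library. The same held for Cebpa, its partner in adipocyte differentiation, at 7.07, 6.80 and 6.66 FPKM in sham and 11.7, 7.47 and 27.2 in VO. Neither passed the test (adjusted p = 0.423 and 0.414), and without VO 3 their log2 fold changes were 0.57 (SE 0.20) and 0.45 (SE 0.20), with an adjusted p of 0.419 for each. Insig2, which holds SREBP in the endoplasmic reticulum, had a log2 fold change of -0.18 (adjusted p = 0.460) and Srebf2 of -0.22 (adjusted p = 0.465).

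In triglyceride storage and breakdown, 2 of 9 genes were higher at an unadjusted p under 0.05 and none lower. Plin2, which coats lipid droplets in most cells, was at 9.88, 9.46 and 9.32 FPKM in sham and 16.7, 11.9 and 20.1 in VO. Its log2 fold change was 0.73 (SE 0.19, adjusted p = 0.371), and 0.56 (SE 0.17, adjusted p = 0.419) without VO 3. Lipe, hormone-sensitive lipase, was at 5.14, 4.38 and 5.27 FPKM in sham and 6.54, 7.69 and 18.8 in VO (adjusted p = 0.410), with log2 fold changes of 0.98 and, without VO 3, 0.52. Every VO library was above every sham library for both genes, where 21.2% of all tested genes had groups without overlap. Plin4 and Plin3 had log2 fold changes of -0.31 and -0.16. Sterol synthesis had none of 8 tested genes under an unadjusted p of 0.05 with all libraries and 3 lower without VO 3. Idi1, an isoprenoid isomerase, was at 2.66, 2.85 and 2.24 FPKM in sham and 1.43, 1.68 and 2.97 in VO. Without VO 3 its log2 fold change was -0.69 (SE 0.19, adjusted p = 0.419). Fdft1, squalene synthase, had a log2 fold change of 0.49 with all libraries (adjusted p = 0.436).

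For each of the 10 genes, the 5 tested genes with the most similar course over the 6 libraries were taken by Pearson's r of log2(FPKM + 0.1). All 50 values of r were between 0.989 and 1.000, and the weight of VO 3 in them differed between pairs. With VO 3 left out, Fasn with Srebf1 was still at 0.989 and Dgat2 with Pfkl at 0.987. Elovl6 with Kng2 fell to 0.323 and Fasn with Kng2 to 0.520. The pairs were picked for a high r, so these values are a description only. Of the 45 pairs among the 10 genes, 45 had r above 0 with all libraries (median 0.950). Without VO 3, 18 of the 45 did (median -0.228), and Srebf1 ran from -0.570 with Agpat2 to 0.989 with Fasn. The 5 most similar genes for Scd1 were Adig, Cidec, Ppm1m, Coasy and Rflnb. For Gpd1 they were Rflnb, Cidec, Prkar2b, Adig and Cdo1. Adig and Cidec are genes of fat cells. Thrsp ran most like Agpat2, Prkar2b, Acat2, Gpd1 and Cidea, and Agpat2 most like Thrsp, Cidea, Prkar2b, Aspg and Acat2. Elovl6 ran most like Tkt, Kng2, Ucp1, Igkv16-104 and Pck1. Fasn had 4921531C22Rik, Bnip3, Kng2 and Srebf1 among its 5, and Srebf1 had Ifi27, Fasn, 4921531C22Rik, Ebf2 and Bnip3. Acaca had Amy1, Ehhadh, Csad, Ebf2 and Arhgef28, and Acly had Csad, Tubb2b, Impdh1, Shmt1 and Acaca. Dgat2 had Pfkl, Cib2, Hadhb, Caap1 and Pcca, of which Hadhb and Pcca are mitochondrial enzymes of fatty acid and propionate oxidation.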

How the data were processed

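RNA-seq covered 6 right atrial libraries at P21, 3 of sham and 3 of VO mice. The authors aligned paired reads with HISAT2 2.0.5, counted fragments per gene with featureCounts 1.5.0-p3 and deposited FPKM computed from gene length and counts. The build in the submitters' processing notes is GRCm38, and 98.4% of 54039 shared genes had the coordinates of its GENCODE M21 annotation, including 9 of the 10 genes described (not Scd1). Of the deposited table, 54093 rows were complete and 1 incomplete row was left out. FPKM times gene length gave whole fragments for 100% of values (tolerance 0.01).

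After median-of-ratios scaling, genes averaging at least 1 FPKM were kept and fitted as log2(FPKM + 0.1) with limma 3.58.1 in R 4.3.3 (eBayes with trend, two-sided), with Benjamini-Hochberg adjustment over 12627 genes and a threshold of 0.05. Fold changes on this scale understate changes of low genes. A count model was not used as the main test because the values are FPKM; voom was run on the recovered fragments. The fit was tested on simulated data. Levels per gene were summarised in Python 3.11.15. Genes named were all 10, in each pathway list the 2 with the smallest p in each direction, the leading gene of each marker list, all adipocyte markers, and the 5 genes most like each of the 10. Some genes that this rule names are not reported here. The genes, lists and rules were chosen with earlier results of these data known. Alternatives were pseudocounts of 1 and 0.01, filters at 0.1 and 5 FPKM, all genes above 0, unscaled FPKM, TPM, quantiles, voom, a replicate block, omission of single libraries, and Adipoq, Plin1 or Cidec alone in place of the adipocyte list. The scaling factor was 1.00 for each library, so unscaled FPKM repeated the main fit and was no separate check.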

Additional observations from a re-analysis of the deposited data

How the results depend on the processing

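The log2 fold changes of the 10 genes were above 0 under each alternative (8 of 8 genes left with a mean FPKM of at least 5) except without VO 3, where 3 of 10 were. Without VO 3, all 10 moved by more than their standard error with all libraries; without VO 1, only Dgat2 did (0.70), and under the other alternatives run 0 did. Of 90 recomputed levels at a marker sum of 0, 4 moved by more than the standard error of the level, all without VO 3: Acly to 13.5 FPKM, Scd1 to 6.50, Elovl6 to 0.715 and Gpd1 to 7.29. Over all tested genes, 1511 had an unadjusted p under 0.05, and 855 to 1998 when 1 library was left out. The numbers in the labels were not taken as pairs, since libraries of the same number correlated at -0.108, 0.0112 and -0.0292 after removal of group means; with the replicate block 932 genes had an unadjusted p under 0.05, with 7 pathway genes higher and 0 lower. TPM gave 9 pathway genes higher and 1 lower, voom 9 higher, and quantile normalization 1 lower, against 4 and 2 as reported. With 1 library left out these counts were 2 to 8 higher and 0 to 6 lower. TPM moved the median of all tested genes to 0.13, with 1085 genes higher and 486 lower against 491 and 1020. Voom moved it to 0.08, with 1068 and 607. Voom took the fragments on genes as library size, and the deposited values rest on another size. These sizes lay furthest apart in sham 1 (16494342 and 15557402) and VO 1 (16852482 and 18144117). The part of this in the shifts was not tested. No pathway gene had an adjusted p under 0.05 under any alternative (smallest 0.221 to 0.693), and all tested genes had 0 to 3. For Thrsp, read from 33 to 105 fragments in 5 libraries, the sham SD (0.951 of a mean of 2.04 FPKM) limited what could be told between VO 1, VO 2 and sham.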

Other observations

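Ranked by the level in VO 3 over the highest of the 5 other libraries, the 10 genes stood between rank 14 (Thrsp) and rank 108 (Acly) of 12627. Genes ahead of all of them included Ucp1, Cfd, Pck1, Cidec, Plin1, Adipoq, Adig, Retn and Car3, a carbonic anhydrase abundant in fat and slow muscle, which was at 227.2 FPKM in VO 3 and at most 2.29 elsewhere. Cdo1, a cysteine dioxygenase, was at 96.0 FPKM in VO 3 and 1.37 to 2.81 elsewhere. Kng2 was at 6.05 FPKM and at most 0.0212 elsewhere. Igkv16-104, an immunoglobulin kappa variable gene, was at 8.85 FPKM in VO 3 and at 0 in the 5 others.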
